A study of Mus musculus with 48 samples.

Results

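Chromatin accessibility was examined at 6 genes of the extracellular adenosine and prostaglandin E2 pathways, Entpd1, Nt5e, Cd38, Adora2a, Ptger2 and Ptger4, in CD8 T cells sorted from mouse tumours. Accessibility was read out by ATAC-seq, an assay in which a transposase, Tn5, places sequencing adapters preferentially in open chromatin. A peak, a region of the deposited table with many such insertions, was given to a gene when it overlapped the body of that protein-coding gene. Where it overlapped several bodies, it went to the gene with a boundary nearest the middle of the peak, and a peak outside all bodies went to the nearest body within 100 kb. By this rule 48 of 53868 peaks belonged to the 6 genes: 12 to Entpd1, 9 to Nt5e, 5 to Cd38, 7 to Adora2a, 10 to Ptger2 and 5 to Ptger4. Of these 26 lay inside a gene body and 22 outside, where only distance ties them to the gene. Peaks are numbered here along the chromosome within each gene, and coordinates are those of the mm10 build of the mouse genome.

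The cells were OT-1 CD8 T cells, whose receptor recognises an ovalbumin peptide, and all of them, controls included, expressed Cas9, carried the CD45.1 allele and received a lentiviral vector with a guide RNA and an ametrine reporter. They were transferred 1 day before the hosts were inoculated with B16-OVA, a mouse melanoma line expressing ovalbumin, and were sorted from the tumours 15 days after inoculation. The guide targeted Zfp219 or Dusp5, labelled as knockouts, or was the control named OTC in the labels, and A and Y in the titles were taken to stand for aged and young. The sorted states were Tprog (labelled progenitor exhausted, Slamf6+Tim-3-), Ttran (transitory, effector-like, Slamf6+Tim-3+), Tterm (terminally exhausted, Slamf6-Tim-3+) and, in aged hosts, Ttad (age-associated dysfunctional, Slamf6-Tim-3-). Aged hosts gave 12 groups, each of the 3 guides in each of the 4 states, with 2 libraries per group. Young hosts gave 9 groups, each guide in Tprog with 2 libraries and in Ttran and Tterm with 3. The age of the hosts in months was not given in the sources used here. Each library is a pool of cells from several mice, and which mice went into which pool was not given, so the p-values measure the spread between pools. The column headers number the aged and the young libraries in separate series of sample numbers. What these series mark is not given in the sources used here, and they cannot be told apart from host age. Accessibility does not measure editing, and the labels of the guides were not checked against the sequence of the targets.

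Extracellular ATP is degraded at the cell surface by the ectoenzyme CD39, the product of Entpd1, and the AMP this yields is converted to adenosine by CD73, the product of Nt5e. CD38 hydrolyses NAD outside the cell and feeds the same route. Adenosine signals through the receptor encoded by Adora2a and prostaglandin E2 through the EP2 and EP4 receptors (Ptger2 and Ptger4), all of which couple to the stimulatory G protein and raise cyclic AMP, a signal that dampens T cell activation. CD39 is widely used as a surface marker of exhausted CD8 T cells in tumours.

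The reference annotation lists 2 starts for Entpd1 on chromosome 19, an upstream one at 40612366 and an internal one at 40659770. The strongest Entpd1 peak, peak 3, covered the internal start. No peak given to Entpd1 covered the upstream start, and the nearest edge of an Entpd1 peak lay 5255 bp away. Peaks given to neighbouring genes were not searched, so whether the upstream start is closed cannot be told. The 250 bases before each start are shown because only the internal window reaches into an Entpd1 peak. Capitals mark the 137 bases of the internal window that lie inside peak 3. The upstream window, with 0 bases in an Entpd1 peak, has no capitals. Both are on the plus strand, 5′ to 3′, from RefSeq in the GRCm38.p6 assembly.
Entpd1 upstream start, chr19:40612116-40612365: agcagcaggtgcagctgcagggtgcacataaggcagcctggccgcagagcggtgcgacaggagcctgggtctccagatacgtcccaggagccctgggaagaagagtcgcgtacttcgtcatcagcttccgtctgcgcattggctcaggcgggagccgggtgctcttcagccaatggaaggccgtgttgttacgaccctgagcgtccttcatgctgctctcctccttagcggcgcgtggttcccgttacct
Entpd1 internal start, chr19:40659520-40659769: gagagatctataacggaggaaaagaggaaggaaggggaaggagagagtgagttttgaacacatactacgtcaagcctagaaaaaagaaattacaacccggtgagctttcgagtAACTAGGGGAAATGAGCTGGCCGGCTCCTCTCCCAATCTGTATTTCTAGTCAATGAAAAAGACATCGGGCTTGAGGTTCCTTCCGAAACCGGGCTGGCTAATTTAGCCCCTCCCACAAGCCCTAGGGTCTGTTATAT
The upstream window held 18 CpG dinucleotides and had a GC content of 62.4%, and the internal window held 8 and 47.2%; the median over 32851 windows of this length in the same table was 6 CpG. The corresponding windows of Nt5e (plus strand, start at 88327609) and Ptger4 (minus strand, start at 5244187) lie entirely inside Nt5e peak 7 and Ptger4 peak 3, whose group means spanned 1.47-fold and 1.26-fold over the whole study. They are shown because they are the member starts with motif matches, and capitals mark the matches to the SP/KLF motif.
Nt5e start, chr9:88327359-88327608: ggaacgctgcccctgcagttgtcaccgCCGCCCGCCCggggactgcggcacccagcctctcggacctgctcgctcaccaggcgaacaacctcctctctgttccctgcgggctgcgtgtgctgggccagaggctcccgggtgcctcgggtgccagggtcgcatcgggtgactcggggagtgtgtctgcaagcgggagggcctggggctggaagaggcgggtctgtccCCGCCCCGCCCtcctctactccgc
Ptger4 start, chr15:5244188-5244437: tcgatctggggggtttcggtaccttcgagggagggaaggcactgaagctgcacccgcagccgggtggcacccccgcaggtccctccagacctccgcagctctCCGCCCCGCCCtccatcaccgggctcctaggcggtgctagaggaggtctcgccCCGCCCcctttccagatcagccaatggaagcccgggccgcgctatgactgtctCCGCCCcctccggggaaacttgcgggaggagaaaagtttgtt
These held 21 and 19 CpG. Matches to SP/KLF (GGGCGG on either strand) numbered 4 in each, and 32.7% of all windows held at least 1. No match to CRE (TGACGTCA), AP-1 (TGANTCA), RUNX (TGTGGT), TCF/LEF (CTTTGA) or ETS (CCGGAA) was found on either strand in the 6 windows searched, those of both Entpd1 starts, Nt5e, Cd38, Ptger2 and Ptger4. These motifs occurred in 1.55%, 6.75%, 14.05%, 13.8% and 12.03% of all windows, in that order. The Ptger2 window held 3 CpG and the Cd38 window 1, with GC contents of 38.0% and 48.8%.

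Reads in peaks ranged from 5638413 to 29942755 per library, with a median of 14691505; aged libraries held 5638413 to 16159054 and young ones 6589023 to 29942755. Values are given as normalised read counts, reads in a peak divided by the authors' scaling factor of the library, and they depend on the width of a peak, so levels are compared between groups and not between peaks. The 35 peaks of 5 T cell identity genes summed to 11695 to 15756 in every library. In aged hosts the sum was 13131 to 14215 with OTC, 13408 to 14072 with Zfp219 and 11695 to 13677 with Dusp5. In young hosts it was 13995 to 15756 with OTC, 12828 to 14921 with Zfp219 and 12488 to 15752 with Dusp5. The part of this sum in the guide and age results was not tested. Peaks were also assigned to genes of other cell types: 10 peaks of myeloid genes (Csf1r and Lyz2 had none), 6 of melanoma genes (Tyr and Dct had none), 17 of endothelial and stromal genes, and 5 at Pax5 alone of 5 B cell genes. No library lacked signal at these lists. In aged OTC libraries the myeloid sum was 1630 to 1702 in Tprog and 1954 to 1976 in Tterm, the endothelial and stromal sum 3016 to 3119 and 4056 to 4143, the melanoma sum 1148 to 1235 and 1025 to 1097, and the B cell sum 514 to 523 and 285 to 337. Ttad lay between them in 3 of these lists, at 1786 to 1931 for myeloid, 3431 to 3588 for endothelial and stromal and 412 to 414 for B cell genes. Their part in the differences between these states was not tested. In sorted pools, a larger share of cells with an open site and a more open site in each cell cannot be told apart.

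Between Tprog and Tterm of control cells, Entpd1 had the largest share of differing peaks among the 6 genes. In aged OTC cells 16 of the 48 peaks passed the test between Tprog and Tterm (limma, adjusted p under 0.05 over all peaks), 3 higher and 13 lower in Tprog, where 20.1% of all peaks passed (8.88% higher and 11.2% lower). In young OTC cells 15 passed, 2 higher and 13 lower, against 26.5% of all peaks (13.9% higher and 12.6% lower). Entpd1 supplied 9 of the 13 lower peaks in aged and 10 of 13 in young cells, and none of its 12 peaks was higher. The median log2 fold change over the 12 Entpd1 peaks was -1.21 in aged and -0.99 in young cells, where the median over all peaks was 0.01 in each.

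At Entpd1 peak 3 (chr19:40659633-40662398), over the internal start, the aged OTC Tprog libraries had 246 and 223 normalised reads, Ttad 300.1 and 341, Ttran 459 and 526 and Tterm 682 and 594. The 4 states did not overlap and stood in that order. In young OTC cells Tprog had 421 and 339.7, Ttran 721, 742 and 715 and Tterm 846, 821 and 891, again without overlap. Tprog was lower than Tterm in aged (log2 fold change of -1.44, SE 0.12, adjusted p = 4.02e-18) and in young cells (log2 fold change of -1.17, SE 0.11, adjusted p = 6.76e-16). Ttran was higher than Tprog in both ages (log2 fold change of 1.07, SE 0.12, adjusted p = 6.39e-12 in aged and log2 fold change of 0.94, SE 0.11, adjusted p = 2.72e-11 in young). Its difference from Tterm did not pass (adjusted p = 0.0567 and 0.131).

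**Figure D1:**
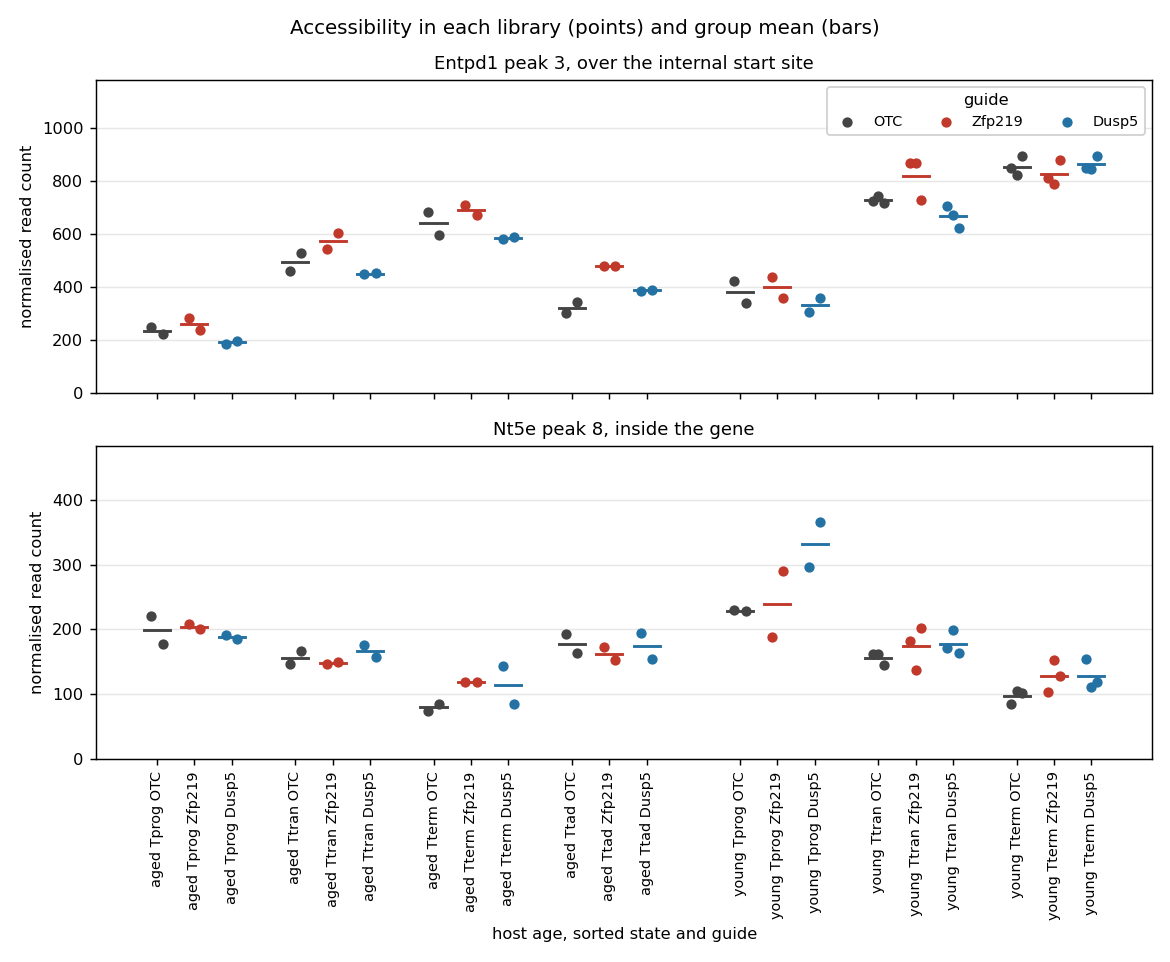
Normalised read count (y axis, from 0) in each of the 48 libraries at Entpd1 peak 3, over the internal start, and at Nt5e peak 8, inside the gene, by host age, sorted state and guide; points are libraries and bars group means. Entpd1 peak 3 runs from 184 in an aged Dusp5 Tprog library to 894 in a young Dusp5 Tterm library and rises from Tprog to Tterm, while Nt5e peak 8 runs the other way, from 367 in a young Dusp5 Tprog library to 74.1 in an aged OTC Tterm library.

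Tprog lay below Tterm at sites far inside the gene as well. In aged OTC cells the mean of Ttad was below that of Ttran at peak 8 (197 against 262). At peak 4 the mean was 51.6 ± 42.1 in Ttad and 43.9 ± 10.2 in Ttran (SD, n = 2 each). The Ttad libraries there lay on either side of those of Ttran, so the order of these states at peak 4 cannot be told. Peak 8 (chr19:40691626-40692556), 32.3 kb downstream of the internal start, had 129 and 122 in aged OTC Tprog and 416 and 408 in Tterm (log2 fold change of -1.71, SE 0.16, adjusted p = 1.64e-15). In young OTC cells it had 168 and 158 in Tprog and 497, 463 and 514 in Tterm (log2 fold change of -1.58, SE 0.14, adjusted p = 4.29e-16). Peak 4 (chr19:40665839-40666251), a weak site 6.3 kb downstream, had 10.2 and 30.2 in aged OTC Tprog and 55.6 and 95.3 in Tterm. This was the largest difference among the 48 peaks in both ages (log2 fold change of -1.98, SE 0.35, adjusted p = 5.68e-06 in aged and log2 fold change of -1.88, SE 0.32, adjusted p = 1.87e-06 in young). Peaks 1 to 9, which reach from 5.7 kb downstream of the upstream start to 48.6 kb downstream of the internal one, were lower in Tprog in both ages. Peak 11 passed only the young threshold (log2 fold change -0.94, adjusted p = 0.0146, against adjusted p = 0.999 in aged cells), and whether the ages differ there did not pass (adjusted p = 0.344). Peaks 10 and 12 passed in neither age. Without replicate 1 of every group, peak 1 no longer passed in aged cells (adjusted p = 0.0584), peak 9 in neither age (adjusted p = 0.238 in aged and 0.0873 in young) and peak 11 not in young cells (adjusted p = 0.219); the count of member peaks that passed in aged cells was then 10.

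The contrast of Tprog and Tterm could be repeated in the Zfp219 and Dusp5 cells, which are separate libraries. In all 6 combinations of age and guide, 9 of the 12 Entpd1 peaks (75.0%) passed and were lower in Tprog, where 6.3% of all peaks passed in 1 direction in all 6 (3.29% lower and 3.01% higher). The log2 fold change ran from -1.61 to -1.06 at peak 3, from -2.05 to -1.86 at peak 4 and from -1.71 to -1.28 at peak 8. Of the other 36 member peaks, Nt5e peak 8 was higher in all 6 (log2 fold changes 0.78 to 1.38) and Ptger2 peak 5 lower in all 6 (-0.96 to -0.41, largest adjusted p = 0.0498). Cd38, Adora2a and Ptger4 had none. In aged Dusp5 cells Ptger2 peak 5 did not pass in edgeR (adjusted p = 0.0653) or in the compared groups alone (adjusted p = 0.0734). The replicate block ended that call too (adjusted p = 0.0538), and in young Dusp5 cells the peak did not pass without replicate 3 (adjusted p = 0.212). Without replicate 1 neither call held (log2 fold change -0.35 in aged and -0.27 in young Dusp5 cells). The aged one also failed without replicate 2 (-0.54). At Nt5e peak 8 the call in aged Dusp5 cells did not hold without replicate 2 (log2 fold change 0.42). The call in aged Zfp219 cells at that peak did not hold without replicate 1 (log2 fold change 0.76) or without replicate 2 (0.81). Within each guide, the member peaks that passed between Tprog and Tterm numbered 14 with aged Zfp219 (2 higher and 12 lower in Tprog, against 18.8% of all peaks) and 17 with aged Dusp5 (3 higher and 14 lower, against 22.9%), and Entpd1 gave 10 of the lower ones each time. In young hosts they numbered 15 with Zfp219 (2 higher and 13 lower, against 26.8%) and 17 with Dusp5 (4 higher and 13 lower, against 29.8%), and Entpd1 gave 9 of the lower ones each time. Between Ttran and Tprog of OTC cells, 12 member peaks passed in aged hosts (11 higher and 1 lower in Ttran, against 17% of all peaks) and 11 in young hosts (10 higher and 1 lower, against 16.9%), with 7 higher Entpd1 peaks in each.

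**Figure D2:**
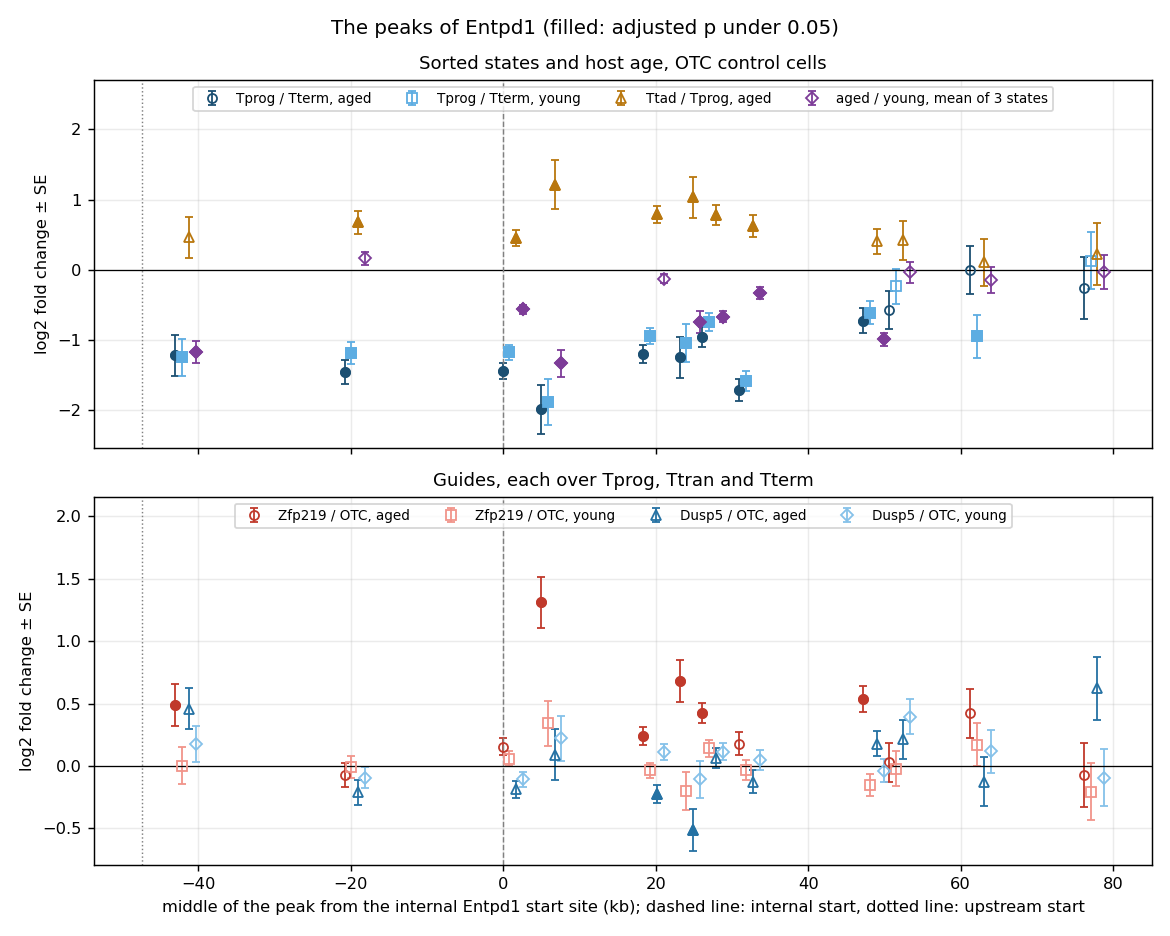
Log2 fold change with its standard error (y axis) at the 12 Entpd1 peaks against the distance of the peak's middle from the internal start in kb (x axis; points of one peak are set slightly apart), for state and age contrasts of OTC cells (top) and for the guides against OTC over Tprog, Ttran and Tterm (bottom). Filled points have an adjusted p under 0.05, and the dashed and dotted lines mark the internal and the upstream start. Tprog lies below Tterm at peaks 1 to 9 in both ages, and the largest guide difference is that of aged Zfp219 cells at peak 4.

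Ttad cells, sorted as negative for both markers, lay between Tprog and Tterm at Entpd1 peaks 3 and 8. Against Tterm, 6 of the 48 peaks passed (2 higher and 4 lower, with 7.28% of all peaks passing, 3.02% higher and 4.26% lower), and all 4 lower ones were Entpd1 peaks. They included peak 3 (log2 fold change of -0.99, SE 0.12, adjusted p = 7.91e-10) and peak 8, at 228 and 165 in Ttad (log2 fold change of -1.08, SE 0.16, adjusted p = 3.50e-07). Both passed under every alternative tried, and the other 2 did not. Against Tprog, 9 peaks passed, all higher in Ttad (6.55% of all peaks passed, 3.82% higher), and 7 of them were Entpd1 peaks. The median over the 12 Entpd1 peaks was 0.54 on the log2 scale, where that over all peaks rounded to 0. The largest of these differences was at peak 4 (log2 fold change of 1.21, SE 0.35, adjusted p = 0.0208), where the Ttad libraries had 21.8 and 81.3 and so differed from each other. Peak 6 came next (log2 fold change of 1.03, SE 0.29, adjusted p = 0.0178). Peak 5 (chr19:40678551-40680404) had 451 and 529.8 in Ttad and 279.7 and 285 in Tprog (log2 fold change of 0.79, SE 0.12, adjusted p = 4.16e-06). It was the only member peak that passed in that comparison under every alternative tried; peak 3 did not without replicate 2 (adjusted p = 0.366), nor peak 4 (adjusted p = 0.139), and without replicate 1 peak 6 did not (adjusted p = 0.376). Without replicate 1 the 9 peaks were 4, and without replicate 2 they were 5. In Zfp219 and Dusp5 cells peak 3 was lower in Ttad than in Tterm with log2 fold changes of -0.52 (adjusted p = 0.00476) and -0.59 (adjusted p = 0.000236), and higher than in Tprog by 0.89 (adjusted p = 3.42e-08) and 1.02 (adjusted p = 2.14e-10). With the Zfp219 guide 3 member peaks passed between Ttad and Tterm, all of Entpd1 and all lower in Ttad (1.75% of all peaks passed), and with the Dusp5 guide 8 passed, 3 higher and 5 lower, 4 of the latter at Entpd1 (7.34% of all peaks). Between Ttad and Tprog 11 passed with the Zfp219 guide, 10 of them higher in Ttad (7.65% of all peaks), and 9 with the Dusp5 guide, all higher (7.33% of all peaks), and Entpd1 gave 8 and 7 of the higher ones.

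Few member peaks passed between Ttran and Tterm. In aged OTC cells 3 of 48 peaks passed, with 3.22% of all peaks passing: Entpd1 peaks 7 (log2 fold change -0.81, SE 0.14, adjusted p = 6.06e-05) and 8 (-0.65, SE 0.16, adjusted p = 0.00837) were lower in Ttran and Nt5e peak 8 higher (log2 fold change of 0.97, SE 0.22, adjusted p = 0.00423). In young OTC cells 4 passed, with 8.38% of all peaks passing: Entpd1 peaks 5 and 8 were lower in Ttran (-0.40 and -0.54) and Nt5e peak 8 and Adora2a peak 3 higher (0.69 and 0.28). None of these 7 calls held under every alternative, and the aged count fell to 0 without replicate 1 and to 1 without replicate 2, the young one to 1 without replicate 1 or without replicate 3. In the fit of the 2 compared young groups alone 7 member peaks passed.

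Over all 21 groups, the mean at Entpd1 peak 3 was highest in young Dusp5 Tterm (861 ± 28.7, SD, n = 3), young OTC Tterm (853 ± 35.7, n = 3), young Zfp219 Tterm (824 ± 47.6, n = 3) and young Zfp219 Ttran (819 ± 81.2, n = 3). Next came young OTC Ttran at 726 ± 14.2 (n = 3), aged Zfp219 Tterm at 689, young Dusp5 Ttran at 664, aged OTC Tterm at 638 and aged Dusp5 Tterm at 583. The middle of the order held aged Zfp219 Ttran at 571, aged OTC Ttran at 492, aged Zfp219 Ttad at 478 and aged Dusp5 Ttran at 449. Below them lay young Zfp219 Tprog at 397, aged Dusp5 Ttad at 386, young OTC Tprog at 380, young Dusp5 Tprog at 330.3 and aged OTC Ttad at 321. The lowest means were those of aged Tprog, at 259 with the Zfp219 guide, 234 with OTC and 190.0 ± 8.65 (SD, n = 2) with Dusp5, so the highest group stood 4.53-fold above the lowest. Of the 20 neighbouring pairs in this order 13 overlapped in their libraries and 7 did not. The fold between the highest and the lowest group was 10.9 at peak 4, 7.75 at peak 6, 7.40 at peak 1 and 4.58 at peak 8, and aged Dusp5 Tprog was the lowest group at these 4 peaks too.

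Nt5e, the gene of CD73, held sites that went in opposite directions. Peak 8 (chr9:88328989-88329909), whose middle lies 1.8 kb inside the gene, had 221 and 177 normalised reads in aged OTC Tprog, 193 and 163 in Ttad, 146 and 166 in Ttran and 74.1 and 84.3 in Tterm. Tterm lay below each of the other 3 states without overlap. In young OTC cells it had 229 and 228 in Tprog, 161, 162 and 145 in Ttran and 84.1, 104 and 101 in Tterm. It was higher in Tprog than in Tterm in aged (log2 fold change of 1.31, SE 0.22, adjusted p = 1.35e-06) and young cells (log2 fold change of 1.25, SE 0.20, adjusted p = 3.74e-07). In aged cells Ttad exceeded Tterm as well (log2 fold change of 1.15, SE 0.22, adjusted p = 0.000107). The last of these did not pass without replicate 1 (adjusted p = 0.075). Over the 21 groups its fold between highest and lowest was 4.19, and 18 of 20 neighbouring pairs of groups overlapped.

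The strongest Nt5e peak, peak 3 (chr9:88273046-88274247), lies outside the gene body, 53.4 kb from it. It had 461 and 533 in aged OTC Tprog and 757 and 704 in Tterm (log2 fold change of -0.56, SE 0.12, adjusted p = 0.000179). In young OTC cells it had 505 and 478 in Tprog against 647, 594 and 646 in Tterm (log2 fold change of -0.35, SE 0.11, adjusted p = 0.00969). Peak 3 was thus lower in Tprog, opposite to peak 8, and so was peak 6 (chr9:88297303-88298748, 28.9 kb from the gene), by -0.70 in aged and -0.97 in young cells. Peak 1, 85.4 kb away, was higher in aged Tprog, close to the threshold (log2 fold change 0.51, adjusted p = 0.0443). In aged cells peak 3 did not pass without replicate 1 (adjusted p = 0.0871). Peaks 1 and 6 did not pass without replicate 1 nor without replicate 2 (adjusted p = 0.221 and 0.236 for peak 1, and 0.0705 and 0.423 for peak 6). In young cells peak 3 did not pass without replicate 2 (adjusted p = 0.108). The peak over the start itself, peak 7 (chr9:88327136-88328067), had 176 and 226 in aged OTC Tprog and 168 and 185 in Tterm (log2 fold change 0.18, adjusted p = 0.575). Its values overlapped between those states, and over all libraries they ran from 144 to 295.

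Cd38, the gene of an ectoenzyme that hydrolyses NAD, showed no called peak between Tprog and Tterm of OTC cells in either age. Of its 5 peaks 1 had an unadjusted limma p under 0.05 in aged and 1 in young cells, and edgeR called 0 in both. The peak over the start, peak 1 (chr5:43868352-43869937), had 183 and 156 in aged OTC Tprog, 174 and 158 in Ttran, 212 and 249 in Tterm and 184 and 196 in Ttad. Its log2 fold change of Tprog against Tterm was -0.44 (SE 0.17, adjusted p = 0.0608) in aged and -0.17 (SE 0.16, adjusted p = 0.487) in young cells. The strongest peak, peak 4 (chr5:43914852-43916014, 2.5 kb outside the gene), ranged from 202 to 463 over the 48 libraries and was not called between any states of OTC cells compared here. Among the guide cells, the start peak was lower in Tprog than in Tterm in young Dusp5 cells (log2 fold change of -0.50, SE 0.16, adjusted p = 0.0102), the only Cd38 call in that contrast over the 6 combinations of age and guide. It did not pass without replicate 1 (adjusted p = 0.136) nor without replicate 2 (adjusted p = 0.0784).

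Among the receptors, Adora2a had its largest differences at a weak site. Peak 4 (chr10:75330286-75330675), inside the gene body, had 217 and 175 normalised reads in aged OTC Tprog, 168 and 174 in Ttad, 87.2 and 82.9 in Ttran and 98.1 and 77.9 in Tterm. Tprog and Ttad were high and Ttran and Tterm low, without overlap between the 2 pairs of states. Young OTC cells were low throughout, with 52.3 and 60.7 in Tprog, 63.6, 46.9 and 64.4 in Ttran and 51.8, 35.4 and 43.3 in Tterm. In aged cells the peak was higher in Tprog than in Tterm (log2 fold change of 1.15, SE 0.31, adjusted p = 0.00363), and Ttad exceeded Tterm as well (log2 fold change of 0.96, SE 0.31, adjusted p = 0.041). In young cells the difference between Tprog and Tterm did not pass (log2 fold change 0.38, adjusted p = 0.347), nor did the difference between the ages in that contrast (0.77, adjusted p = 0.435). Both aged calls fail with a replicate left out: adjusted p = 0.102 and 0.063 against Tterm for Tprog, and 0.19 and 0.333 for Ttad, without replicates 1 and 2 in turn. The strongest Adora2a peak, peak 3 (chr10:75326060-75327428), had 1233 and 1155 in aged OTC Tprog, 1518 and 1460.3 in Ttran and 1248 and 1508 in Tterm, and its Tprog and Tterm values differed by -0.20 on the log2 scale (adjusted p = 0.0928).

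Ptger2, the gene of the EP2 receptor, was lower in Tprog of aged OTC cells at the peak over its start and at a site past its end. The peak over the start, peak 3 (chr14:44988105-44990839), had 879.8 and 971 in aged OTC Tprog, 1195 and 1122 in Tterm and 1232 and 1157 in Ttad. It was lower in Tprog than in Tterm (log2 fold change of -0.33, SE 0.08, adjusted p = 0.00172) and higher in Ttad than in Tprog (log2 fold change of 0.37, SE 0.08, adjusted p = 0.00148). In young cells the difference between Tprog and Tterm did not pass (-0.14, adjusted p = 0.17). In aged Dusp5 cells the start peak went the opposite way, with 996 and 979.7 in Tprog and 911 and 785 in Tterm, and was called higher in Tprog (log2 fold change of 0.22, SE 0.08, adjusted p = 0.0379). That call did not hold in edgeR (adjusted p = 0.0527), in the compared groups alone (adjusted p = 0.131) or without replicate 2 (adjusted p = 0.538). Peak 5 (chr14:45011056-45012099), 7.2 kb outside the gene, had 241 and 189.9 in aged OTC Tprog, 429 and 287 in Ttran, 344 and 409 in Tterm and 391 and 407 in Ttad. Tprog was the lowest state without overlap, both there (log2 fold change of -0.81, SE 0.17, adjusted p = 0.000178) and in young cells, with 214 and 151 in Tprog and 305, 293 and 259.8 in Tterm (log2 fold change of -0.66, SE 0.16, adjusted p = 0.000651). Ttad was higher than Tprog at peak 5 as well (log2 fold change of 0.89, SE 0.17, adjusted p = 0.000196). Peak 4 (chr14:45005292-45006468) went the other way in young cells, higher in Tprog (log2 fold change of 0.50, SE 0.11, adjusted p = 0.00016). The calls at peak 3 did not hold without replicate 1 (adjusted p = 0.247 against Tterm and 0.259 for Ttad against Tprog), and that against Tterm not after quantile normalization (adjusted p = 0.078). Those at peak 5 did not hold without replicate 2 (adjusted p = 0.181 in aged and 0.209 in young cells, and 0.111 for Ttad against Tprog).

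**Figure D3:**
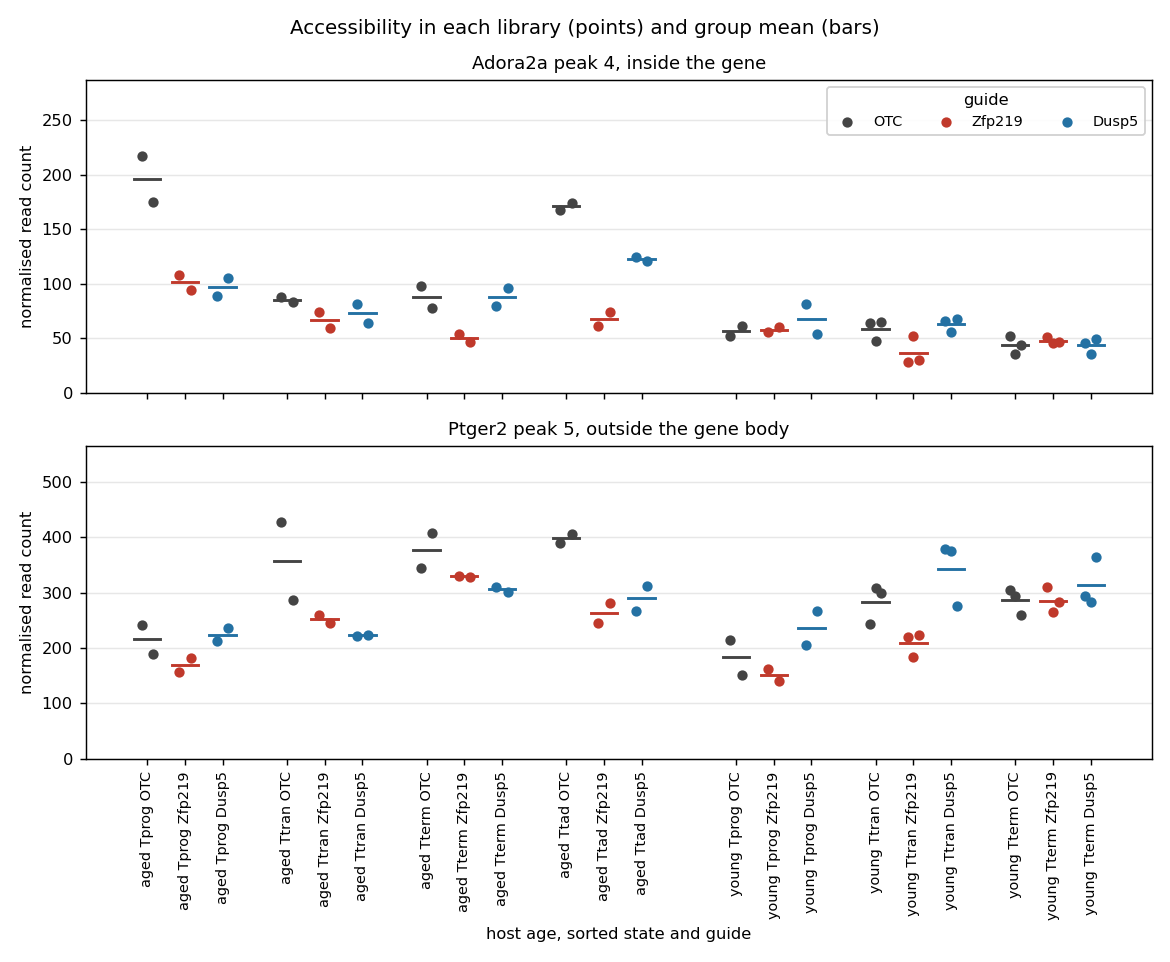
Normalised read count (y axis, from 0) in each of the 48 libraries at Adora2a peak 4, inside the gene body, and at Ptger2 peak 5, 7.2 kb outside the gene, by host age, sorted state and guide; points are libraries and bars group means. Adora2a peak 4 is highest in aged OTC Tprog (217 and 175) and Ttad (168 and 174), and Ptger2 peak 5 is lower in Tprog than in Tterm in each combination of age and guide.

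Ptger4, the gene of the EP4 receptor, varied little at its start. The peak over its start, peak 3 (chr15:5243624-5245005), ranged from 892 to 1224 over the 48 libraries, a 1.26-fold range between group means, and 19 of 20 neighbouring pairs of groups overlapped. Aged OTC Tprog had 991 and 1043 and Tterm 1076 and 1116 (log2 fold change -0.11, SE 0.08, adjusted p = 0.413). None of the 5 Ptger4 peaks passed between Tprog and Tterm of OTC cells in either age, where 0 in aged and 1 in young cells had an unadjusted limma p under 0.05 and edgeR called 0 in both. In the guide cells the same contrast gave 2 calls. The start peak was higher in Tprog of aged Dusp5 cells, with 1062 and 1064 against 892 and 914 in Tterm (log2 fold change of 0.24, SE 0.08, adjusted p = 0.0305), and peak 1 was lower in Tprog of young Zfp219 cells (log2 fold change of -0.41, SE 0.12, adjusted p = 0.00485). Neither passed without replicate 1 (adjusted p = 0.176 and 0.0516) or without replicate 2 (adjusted p = 0.194 and 0.115), and the call at the start peak did not hold in the compared groups alone (adjusted p = 0.0812).

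Host age was compared in OTC cells as the mean difference over Tprog, Ttran and Tterm. Aged hosts were higher at 8 and lower at 13 of the 48 peaks, 21 in all, where 36.5% of all peaks passed (17.3% higher and 19.1% lower). Entpd1 was lower in aged hosts at 7 of its 12 peaks and higher at none, with a median of -0.44 against 0.00 over all peaks. At peak 3 the difference was -0.56 (SE 0.06, adjusted p = 5.10e-12), and within each state the aged libraries lay below the young ones without overlap, by -0.69 in Tprog, -0.56 in Ttran and -0.42 in Tterm. At Entpd1 peak 4 aged hosts differed most from young ones (log2 fold change of -1.33, SE 0.19, adjusted p = 1.20e-08), with 55.6 and 95.3 in aged and 185, 164 and 185 in young Tterm. Peak 1 came next (log2 fold change of -1.16, SE 0.16, adjusted p = 1.45e-09). Peak 9 was lower by -0.99 (SE 0.10, adjusted p = 4.09e-15). The 7 Entpd1 calls held under every alternative tried. Taken by state, 12 member peaks passed in Tprog (3 higher and 9 lower in aged hosts, against 15.4% of all peaks), 12 in Ttran (3 higher and 9 lower, against 18.3%) and 11 in Tterm (4 higher and 7 lower, against 18.9%). The myeloid marker sum also differed between these groups, at 1630 to 2063 in aged and 2101 to 2362 in young OTC libraries, and its part in the result was not tested.

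Away from Entpd1, Adora2a peak 4 was higher in aged OTC cells (log2 fold change of 1.11, SE 0.17, adjusted p = 5.87e-08), by 1.77 in Tprog (adjusted p = 1.03e-05) and 1.01 in Tterm (adjusted p = 0.00609). Of the other Adora2a peaks, peaks 1 and 3 were slightly higher (0.17 and 0.19) and peak 7 lower (-0.52). Ptger2 was higher in aged cells at 4 peaks past its end, among them peak 6 (log2 fold change of 0.86, SE 0.18, adjusted p = 5.24e-05) and peak 7 (0.50), and lower at its start, peak 3 (-0.13, adjusted p = 0.0153). Cd38 was lower at its start (log2 fold change of -0.35, SE 0.09, adjusted p = 0.00174) and at peak 4 (log2 fold change of -0.47, SE 0.09, adjusted p = 1.34e-05), where young OTC Tprog had 351 and 438 and aged OTC Tprog 257 and 248. Nt5e was higher at peak 6 (0.72) and lower at peaks 4 and 9 (-0.35 and -0.63). No Ptger4 peak passed, 0 had an unadjusted p under 0.05 and edgeR called 0. Without replicate 1, Adora2a peak 1 (adjusted p = 0.143), Adora2a peak 7 (adjusted p = 0.0538), Nt5e peak 4 (adjusted p = 0.321) and Ptger2 peak 5 (adjusted p = 0.104) no longer passed, nor did Ptger2 peak 3 without replicate 2 (adjusted p = 0.186). Whether the contrast of Tprog and Tterm differs between the ages was tested as an interaction and passed at 0 of the 48 peaks by limma, with 4 at an unadjusted p under 0.05, and at 0 by edgeR; 2.32% of all peaks passed.

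**Figure D4:**
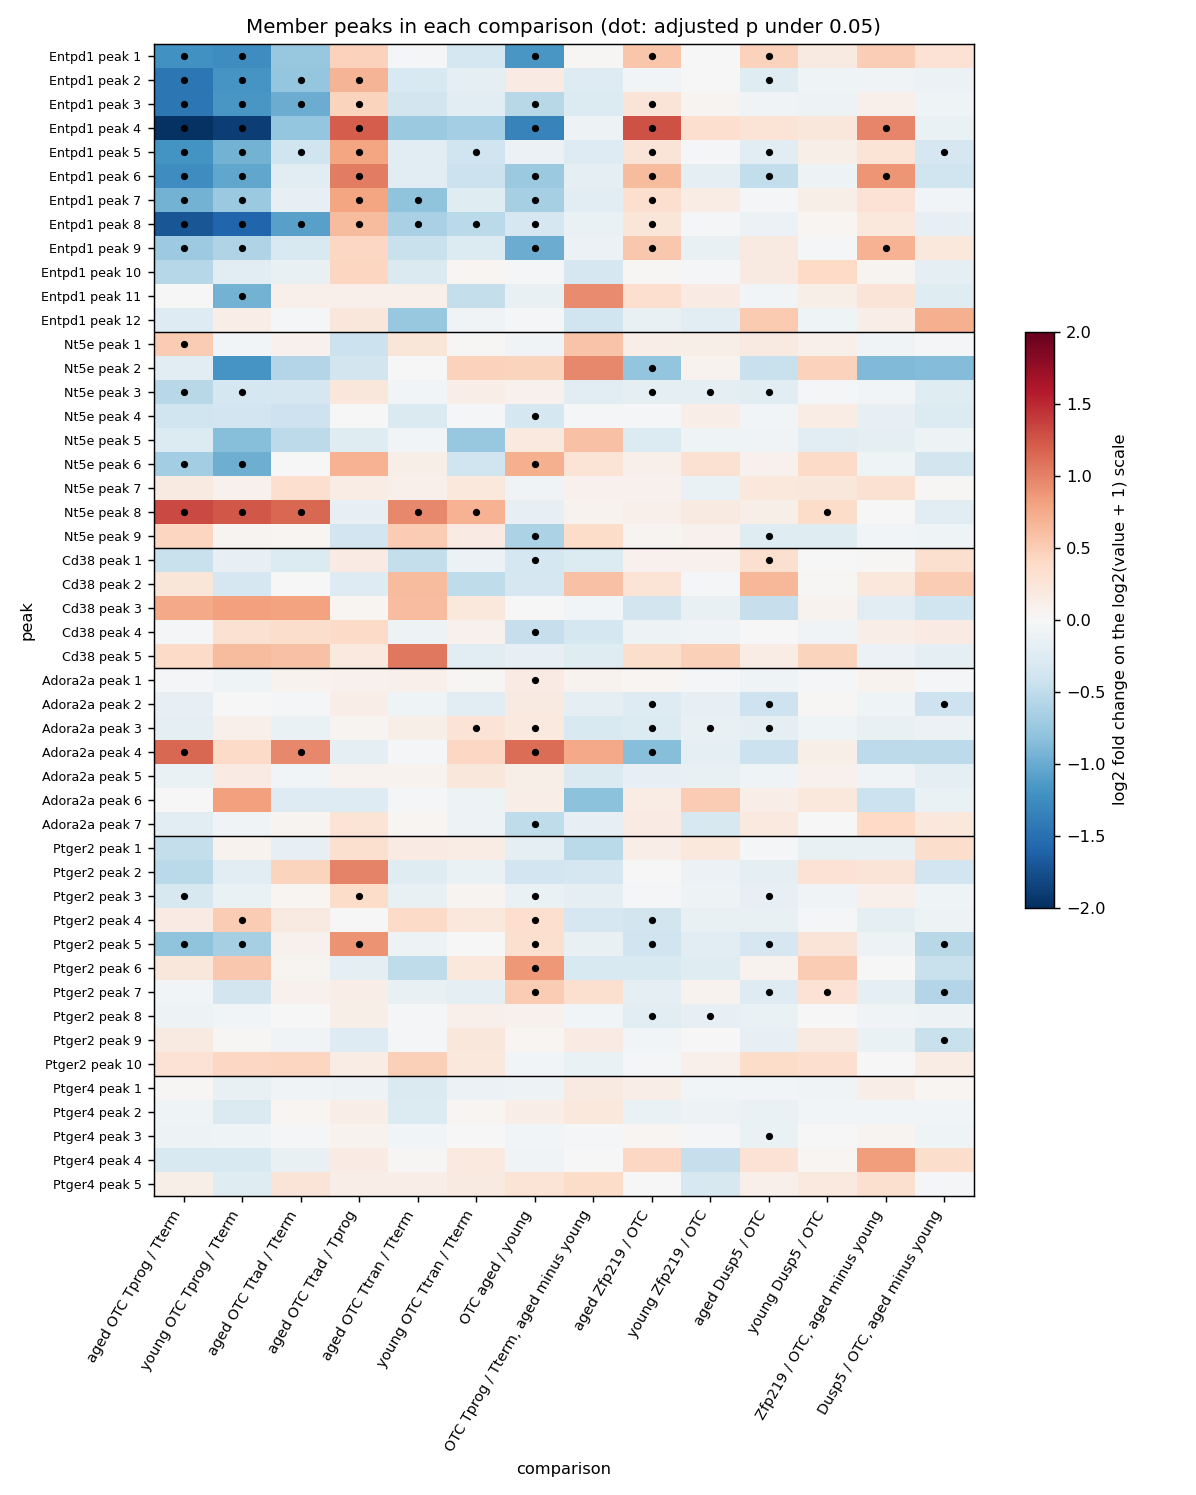
Log2 fold change (colour, limited to 2 in size) of the 48 peaks (rows, by gene and position) in the 14 comparisons (columns); a dot marks a peak with an adjusted p under 0.05. Entpd1 peaks 1 to 9 form a block of lower values in the 2 columns of Tprog against Tterm, and 32 of the 48 peaks carry a dot in at least 1 column.

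The Zfp219 guide was compared with OTC within each age, as a mean over states. In aged hosts, over 4 states, 16 of 48 peaks passed, 8 higher and 8 lower, where 25.8% of all peaks passed (12.1% higher and 13.7% lower). The 8 higher ones were all Entpd1 peaks. At peak 4, Zfp219 cells had 61.1 and 27.4 in Tprog, 139.8 and 115 in Ttran, 155 and 194 in Tterm and 81.4 and 111 in Ttad. OTC cells had, in the same order, 10.2 and 30.2, then 51.1 and 36.7, then 55.6 and 95.3 and then 21.8 and 81.3 (log2 fold change of 1.27, SE 0.18, adjusted p = 8.67e-09). The libraries did not overlap in Ttran, Tterm and Ttad, Ttad only narrowly, and overlapped in Tprog. Peak 6 was higher by 0.63 (SE 0.15, adjusted p = 0.000462), peak 9 by 0.54 (SE 0.09, adjusted p = 6.17e-07) and peak 3 by 0.26 (SE 0.06, adjusted p = 0.000304). At peak 3 the largest difference by state was in Ttad, with 478 and 478 against 300.1 and 341 (log2 fold change 0.58, adjusted p = 0.000349). Over Tprog, Ttran and Tterm alone peak 3 did not pass (log2 fold change 0.16, adjusted p = 0.0986), and 6 Entpd1 peaks did, with 18.4% of all peaks passing.

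The 8 lower peaks in aged Zfp219 cells belonged to the receptors and Nt5e. Adora2a peak 4 had 108 and 94.4 in Tprog and 61.0 and 74.2 in Ttad, below the OTC libraries of the same states without overlap (log2 fold change of -0.86, SE 0.16, adjusted p = 7.43e-06). Adora2a peak 3 was lower by -0.27 (adjusted p = 6.85e-07) and Adora2a peak 2 by -0.26 (adjusted p = 0.00501). Ptger2 was lower at peaks 4, 5 and 8 (-0.36, -0.40 and -0.22), and at peak 5 Zfp219 Ttad had 245 and 282 against 391 and 407 in OTC Ttad. Nt5e was lower at peaks 2 and 3 (-0.79 and -0.20). Without replicate 1 the 16 peaks became 10, and those lost were Entpd1 peak 1 (adjusted p = 0.156), Entpd1 peak 7 (adjusted p = 0.0564), Adora2a peak 2 (adjusted p = 0.0516), Nt5e peak 2 (adjusted p = 0.336), Nt5e peak 3 (adjusted p = 0.253) and Ptger2 peak 5 (adjusted p = 0.102). Without replicate 2, Entpd1 peak 8 did not pass (adjusted p = 0.231). Entpd1 peaks 3, 4, 5, 6 and 9, Adora2a peaks 3 and 4 and Ptger2 peaks 4 and 8 passed under every alternative. The melanoma marker sum was 749 to 1216 in aged Zfp219, 802 to 1161 in aged Dusp5 and 1025 to 1349 in aged OTC libraries, and the myeloid sum 1730 to 2047, 1631 to 1876 and 1630 to 2063; their part in the guide results was not tested.

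In young hosts, over 3 states, Zfp219 cells differed at 3 of 48 peaks, all lower, where 7.07% of all peaks passed. These were Nt5e peak 3 (log2 fold change of -0.20, SE 0.06, adjusted p = 0.0263) and Ptger2 peak 8 (log2 fold change of -0.16, SE 0.05, adjusted p = 0.0491). The third was Adora2a peak 3 (log2 fold change of -0.15, SE 0.04, adjusted p = 0.027). None of them passed after quantile normalization (adjusted p = 0.103, 0.271 and 0.332), and none without replicate 1, 2 or 3 in turn. Without replicate 1 a single other member peak passed. No Entpd1 peak passed by limma or edgeR, and 1 had an unadjusted limma p under 0.05. At Entpd1 peak 4 young Zfp219 cells had 160.2, 134 and 199.6 in Ttran and 221, 195 and 234 in Tterm, against 115, 100.1 and 118 and 185, 164 and 185 in OTC cells (log2 fold change over 3 states 0.34, adjusted p = 0.27). The difference of the Zfp219 effect between ages shares its OTC libraries with the age and the guide comparisons, so these are not independent. Over Tprog, Ttran and Tterm it passed at 3 peaks, all of Entpd1 and all higher in aged hosts. Of all peaks 9.11% passed (4.09% higher). They were peaks 4 (log2 fold change of 0.97, SE 0.27, adjusted p = 0.0119), 6 (log2 fold change of 0.88, SE 0.23, adjusted p = 0.00543) and 9 (log2 fold change of 0.69, SE 0.14, adjusted p = 0.000172). Peak 4 did not pass without replicate 1 (adjusted p = 0.194) and peak 6 not without replicate 2 (adjusted p = 0.0823).

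The Dusp5 guide was compared with the same OTC libraries as the Zfp219 guide, so the values of the 2 guides are not independent. In aged hosts 13 of 48 peaks passed, 2 higher and 11 lower, where 12.2% of all peaks passed (4.35% higher and 7.87% lower); after quantile normalization 7 passed, 2 higher and 5 lower. The largest were Entpd1 peaks 6 (log2 fold change of -0.50, SE 0.15, adjusted p = 0.0137) and 1 (log2 fold change of 0.46, SE 0.14, adjusted p = 0.0207), which went in opposite directions. At Entpd1 peak 3 the aged Dusp5 libraries had 184 and 196 in Tprog, 448 and 450.1 in Ttran, 578 and 587 in Tterm and 384 and 388 in Ttad, and the mean difference did not pass (-0.07, adjusted p = 0.482). Adora2a was lower at peak 2 (log2 fold change of -0.41, SE 0.07, adjusted p = 2.05e-05) and peak 3 (-0.17), and Ptger2 at its start (-0.16) and at peaks 5 and 7 (-0.34 and -0.26). At the Ptger2 start aged Dusp5 Tterm had 911 and 785, against 1195 and 1122 in OTC Tterm. The start peak of Ptger4 was lower as well (log2 fold change of -0.13, SE 0.04, adjusted p = 0.0242), in its single call over the 14 comparisons. The start peak of Cd38 was higher (log2 fold change of 0.32, SE 0.09, adjusted p = 0.00699). Entpd1 peaks 2 and 5 and Nt5e peaks 3 and 9 were lower too, with log2 fold changes from -0.25 to -0.21. None of the 13 calls held under every alternative: without replicate 1 the count was 4 and without replicate 2 it was 6, and Ptger4 peak 3 then had adjusted p = 0.0904 and 0.315.

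In young hosts Dusp5 cells differed at 2 of 48 peaks, with 3.82% of all peaks passing, both higher. They were Nt5e peak 8 (log2 fold change of 0.37, SE 0.11, adjusted p = 0.0404) and Ptger2 peak 7 (log2 fold change of 0.29, SE 0.09, adjusted p = 0.0458). At Nt5e peak 8 young Dusp5 Tprog had 297 and 367, above the 229 and 228 of OTC Tprog, and the group was the highest of the 21. By edgeR 4 peaks passed, after quantile normalization 0, and without replicates 1, 2 and 3 in turn 1, 0 and 0. The difference of the Dusp5 effect between ages passed at 5 peaks, all lower in aged hosts, where 4% of all peaks passed (2.73% lower). Among them were Ptger2 peaks 7 (log2 fold change of -0.58, SE 0.13, adjusted p = 0.0033), 5 (log2 fold change of -0.55, SE 0.13, adjusted p = 0.00538) and 9 (log2 fold change of -0.45, SE 0.13, adjusted p = 0.0364). The others were Adora2a peak 2 (log2 fold change of -0.42, SE 0.11, adjusted p = 0.0161) and Entpd1 peak 5 (log2 fold change of -0.33, SE 0.10, adjusted p = 0.0269). At Ptger2 peak 5 aged Dusp5 Ttran had 221 and 224 against 429 and 287 in OTC, and young Dusp5 Ttran 379, 376 and 277 against 244, 309 and 299. Without replicate 1 the 5 peaks became 1 and without replicate 2 they became 0, and after quantile normalization 3 passed.

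Taken state by state, each guide effect rests on 2 or 3 libraries a group, and few member peaks passed. Aged Zfp219 cells differed from OTC at 1 member peak in Tprog (2.56% of all peaks passed) and 1 in Tterm (3.57%), both at Entpd1 and both higher. In aged Ttran 6 passed, 3 of them higher, all at Entpd1, and 3 lower, at Nt5e, Adora2a and Ptger2 (14.2% of all peaks). In Ttad 7 passed, 3 of them higher, again at Entpd1, and 4 lower, at Cd38, Adora2a and Ptger2 (8.23% of all peaks). Ttad and Ttran thus held most of the member calls for this guide, and over all peaks Ttran had the largest share of the 4 states. Reads in peaks were 9060635 and 8547780 in aged OTC Ttran against 12793436 and 16034483 with Zfp219. In Ttad they were 8059981 and 10929698 against 15723953 and 15700492. In Tprog OTC had 11511619 and 14660613 and Zfp219 9160914 and 12792515. In Tterm OTC had 12447296 and 14780826 and Zfp219 15249285 and 16159054. The part of depth in these counts was not tested. Young Zfp219 cells were lower in Ttran at 1 peak of Adora2a and 1 of Ptger2 (5.88% of all peaks). No member peak passed by limma or edgeR in young Tprog or young Tterm with this guide (0.997% and 0.275% of all peaks passed by limma), where 4 had an unadjusted limma p under 0.05 in each. Aged Dusp5 cells were lower at 2 peaks of Adora2a and 1 of Ptger2 in Ttran (3.8% of all peaks). In aged Tterm they were higher at 1 peak of Entpd1 and 1 of Ptger2 and lower at 1 of Ptger2 and 1 of Ptger4 (4.11% of all peaks). Over Tprog, Ttran and Tterm without Ttad, 9 member peaks passed in aged Dusp5 cells, 1 higher and 8 lower (8.37% of all peaks). Limma and edgeR called 0 member peaks with the Dusp5 guide in aged Tprog and Ttad (0.83% and 2.88% of all peaks passed by limma), with 9 and 10 at an unadjusted limma p under 0.05. They also called 0 in young Tprog, Ttran and Tterm (0.782%, 0.646% and 0.273%), with 6, 3 and 2 at an unadjusted p under 0.05.

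Across the 21 group means the other member peaks tracked Entpd1 peak 3 to different degrees; these correlations are over groups that share guides, states and host ages and are a description. Entpd1 peaks 1, 2 and 4 to 9 had Pearson's r of 0.82 to 0.96 with peak 3, peak 11 had 0.64, peak 10 had 0.48 and peak 12 had -0.20. Nt5e peak 3 had 0.74 and Nt5e peak 8 -0.64. Adora2a peak 4 (-0.74), Ptger2 peak 6 (-0.75) and Ptger2 peak 4 (-0.65) ran against it, and the Ptger4 start peak had 0.13. Outside the 6 genes, the peak most like Entpd1 peak 3 lay at chr11:46446179-46448809 (r = 0.978), which the rule gives to Med7 and which lies 6122 bp from the body of Havcr2, the gene of the sorting marker Tim-3. Peaks given to 1700028K03Rik (0.978) and Auh (0.977) followed. The nearest likenesses of the strongest peaks of the other genes were Rgs8 for Nt5e (0.946), Snrk for Cd38 (0.925), Ambra1 for Adora2a (0.930), Rac2 for Ptger2 (0.863) and Nufip2 for Ptger4 (0.846).

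Other genes of these pathways were examined as lists. Of 55 peaks of 16 further genes of adenosine and NAD handling, 8 passed between Tprog and Tterm in aged OTC cells (5 higher and 3 lower in Tprog) and 8 in young ones (6 higher and 2 lower), with medians of 0.17 and 0.13 over the 55. Over all peaks 20.1% and 26.5% passed in these comparisons, with medians of 0.01. The gene with the most calls was Dpp4, with 3 of 6 peaks in aged cells, all higher in Tprog. Between aged and young hosts 17 of the 55 passed (30.9%, against 36.5% of all peaks), 4 higher and 13 lower, led by Bst1, a relative of Cd38, lower at 5 of 10 peaks, and in aged Zfp219 cells 13 passed (23.6%, against 25.8% of all peaks), 7 higher and 6 lower. Of 37 peaks of 10 ATP receptor and channel genes, 7 passed in aged (5 higher, median 0.14) and 12 in young cells (10 higher, median 0.15), where the ATP-gated channel gene P2rx7 was higher in Tprog at 4 of 5 peaks.

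Of 42 peaks of 13 genes of prostaglandin synthesis, transport and other receptors, 7 passed between Tprog and Tterm in aged (6 higher, median 0.11) and 9 in young OTC cells (6 higher, median -0.10), led in both by Abcc4, a prostaglandin exporter, with 5 and 4 of its 10 peaks. These are 16.7% and 21.4% of the list, where 20.1% and 26.5% of all peaks passed. Between ages 18 of the 42 passed, 14 higher and 4 lower in aged hosts with a median of 0.22, where 36.5% of all peaks passed and their median was 0.00, and the prostaglandin transporter gene Slco2a1 was higher at 4 of 4 peaks. Of 216 peaks of 23 cyclic AMP signalling genes, 42 passed between Tprog and Tterm in aged (16 higher and 26 lower) and 38 in young cells (16 higher and 22 lower), or 19.4% and 17.6%, with a median of -0.04 in both and the same shares of all peaks to set against them. They included 11 of 44 peaks at Akap13, an anchor of protein kinase A, in aged cells. In aged Zfp219 cells 62 of the 216 passed (28.7%, against 25.8% of all peaks), 29 higher and 33 lower. In aged Dusp5 cells 32 passed (14.8%, against 12.2%), 7 higher and 25 lower. Each had a median of -0.04.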

How the data were processed

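The deposited table holds a normalised signal for 53868 peaks in 48 libraries. The deposited signal of each library is whole reads divided by 1 factor, as the values show: whole reads were recovered for 100% of values within 0.1 reads. Per the submitters' processing notes, the tools were Bowtie2 2.2.9, Picard 2.8.0, SAMtools 1.3.1, MACS2 2.1.1 and DESeq2 1.28.1, and the build was mm10; how duplicates were treated and whether insertion sites were shifted is not given in the sources used here. Whether peaks were called per library or on pooled libraries was not given either.

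Genes came from the RefSeq gene table of GRCm38.p6, the assembly of mm10, with 21896 protein-coding genes; exon and intron positions were not used here, and the start of Adora2a was not matched. The test was limma 3.58.1 (R 4.3.3, lmFit and eBayes with trend) on log2(value + 1), with all 48 libraries and a mean for each of the 21 groups, and Benjamini-Hochberg adjustment over all peaks; a peak passed at adjusted p under 0.05. Fold changes on this scale understate changes of weak peaks. The code was tested on simulated data. There were 14 comparisons and 29 further contrasts, and 9 alternatives were tried: quantile normalization, a pseudocount of 8, leaving out the 25% of peaks with the lowest mean, edgeR 4.0.16 quasi-likelihood tests on the recovered reads (16 and 18 member peaks between Tprog and Tterm in aged and young OTC cells), the compared groups alone, a replicate block, and leaving out replicate 1, 2 or 3 of every group.

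Per library 5638413 to 29942755 reads lay in peaks, which limits precision most at weak peaks; sequenced reads are not independent molecules. Peaks named were the strongest and the start peak of each gene and, in each comparison, the 2 called peaks with the largest log2 fold change; other peaks named were chosen after their values were seen. The members and the pathway and marker lists were chosen with earlier results of these data known.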

Additional observations from a re-analysis of the deposited data

Results flagged for a closer look

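At 8 member peaks the difference between a guide and OTC itself differed between aged and young hosts, by limma's interaction test over Tprog, Ttran and Tterm; host age and the number series of the libraries cannot be told apart. For Zfp219 the aged difference exceeded the young one at Entpd1 peak 4 by 0.97 on the log2 scale (adjusted p = 0.0119), at Entpd1 peak 6 by 0.88 (adjusted p = 0.00543) and at Entpd1 peak 9 by 0.69 (adjusted p = 0.000172). For Dusp5 the aged difference minus the young one was -0.42 at Adora2a peak 2 (adjusted p = 0.0161), -0.55 at Ptger2 peak 5 (adjusted p = 0.00538), -0.58 at Ptger2 peak 7 (adjusted p = 0.0033), -0.45 at Ptger2 peak 9 (adjusted p = 0.0364) and -0.33 at Entpd1 peak 5 (adjusted p = 0.0269). Of these 8, Entpd1 peak 9 passed under every alternative tried. The differences share their OTC libraries with the age and the guide comparisons. The young Ttran and Tterm groups had 3 libraries and every other group 2, so no group was large enough for a test of single outlying libraries.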

How the results depend on the processing

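Over the 14 comparisons and 29 further contrasts, 315 results of member peaks passed the threshold; all 315 kept their direction under the 9 alternatives and 125 passed under all of them. Of the 1749 that did not pass, 78 passed under some alternative, 0 of them in the opposite direction. Leaving out replicate 1 (139) or replicate 2 (124) cost the most calls, then the compared groups alone (48), quantile normalization (35), leaving out replicate 3 (29), edgeR (14), the replicate block (12) and the pseudocount of 8 (1); of 311 that could be tested without the weakest 25% of peaks 0 were lost. With a replicate left out of every group, a lone library is assumed to vary like the other groups. The counts of passing member peaks then ran from 10 to 16 for Tprog against Tterm in aged and 14 to 15 in young OTC cells, 4 to 6 for Ttad against Tterm, 4 to 9 for Ttad against Tprog, 0 to 3 and 1 to 4 for Ttran against Tterm in aged and young cells, 17 to 21 for age and 0 to 0 for its interaction with state. For the guides they ran from 10 to 16 for Zfp219 in aged and 0 to 1 in young hosts, 4 to 11 for Dusp5 in aged and 0 to 1 in young hosts, and 2 to 3 and 0 to 4 for the differences of the Zfp219 and the Dusp5 effect between ages. Of the other alternatives, the compared groups alone moved Ttad against Tprog to 5, young Ttran against Tterm to 7 and young Dusp5 to 5. Quantile normalization moved young Zfp219 to 0, aged Dusp5 to 7 (2 higher and 5 lower, against 2 and 11), young Dusp5 to 0 and the difference of the Dusp5 effect between ages to 3, and edgeR moved young Dusp5 to 4; the cause was not tested. No pairing of the libraries by replicate number was seen. The differences between replicates 1 and 2 correlated between groups at -0.030 to 0.018 over 66 pairs of aged groups. Over 36 pairs of young groups they correlated at -0.014 to 0.017. These correlations do not show whether pools with the same number shared mice. With the replicate number as a block no count moved by more than 1.5 times, and in the 14 comparisons the block ended the age calls at Cd38 peak 1 (adjusted p = 0.0858) and Ptger2 peak 3 (adjusted p = 0.0949).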
